A study of Homo sapiens with 6 samples.

Results

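PAPPA, the pregnancy-associated plasma protein A, and the genes it works with in insulin-like growth factor (IGF) binding were followed by symbol through RNA-seq of BR-shCON and BR-shSPANXB1 cells. The genes were the protease PAPPA, its stanniocalcin inhibitors STC1 and STC2, the binding proteins IGFBP2, IGFBP3, IGFBP4, IGFBP6 and IGFBP7, and the receptors IGF1R and IGF2R. Of these 10 genes, 9 had a row among the 16570 genes of the deposited table, and IGFBP2 was not analysed here. The genes were put together after the difference between BR-shCON and BR-shSPANXB1 cells had been seen, in which PAPPA had passed the thresholds of the study. Their values in that comparison are therefore a description. Whether a gene passed the adjusted p of the fit across all genes is stated as part of that description and supports nothing.

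IGFs are growth factors that circulate and act in tissues bound to IGF-binding proteins, which hold them away from the receptor. PAPPA is a secreted metalloproteinase that cuts IGFBP4, above all when IGF is bound, and so frees the IGF near cells. The stanniocalcins bind PAPPA and block it. IGF1R is the tyrosine kinase receptor that passes the signal on, while IGF2R takes up IGF2 for breakdown in lysosomes and carries lysosomal enzymes.

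The cells were of the BR line, which derives from MDA-MB-231, a triple-negative breast cancer line of mesenchymal character, and spreads to brain. BR-shSPANXB1 cells carry a lentiviral shRNA against SPANXB1, a cancer-testis antigen, and BR-shCON cells a control vector, with stable lines selected by puromycin in both cases. The groups are called knockdown and control below. There were 3 samples in each group, grown in DMEM with fetal bovine serum, which itself brings IGFs and their binding proteins into the culture. The sources used here do not say whether a line was 1 clone or a pool, and 1 shRNA sequence was used for the stable line. The extraction text of the labels names the BR line and MDA-MB-231 with no mention of the knockdown, and groups were taken from the sample titles.

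SPANXB1, the silenced gene, was at 445, 563 and 515 FPKM (fragments scaled to transcript length and to the number mapped) in the control samples and at 232, 260 and 248 in the knockdown samples. Totals ran from 16294462 to 16666167 estimated counts per sample. The line markers VIM, CD44, EGFR, AXL and CAV1 lay at 143 to 2400 FPKM, and the oestrogen and progesterone receptors ESR1 and PGR stayed under 1 FPKM. Of the epithelial markers CDH1 reached 0.03 FPKM, while ERBB2 was at 12.3 to 13.7 and EPCAM at 6.94 to 10.1. Among markers of other cells, PTPRC, CDH5, VWF, PDGFRB, GFAP and RBFOX3 stayed at or under 0.4 FPKM. PECAM1 reached 1.45 and COL1A1 1.15. CD68, which tumour lines can also express, was at 64.3 to 77.9 FPKM, so that the leukocyte list summed to 75.7 to 78.0 in control and 64.4 to 69.6 in knockdown samples. Other sums that did not overlap were the line markers, at 2942 to 3008 in control and 3063 to 3251 in knockdown samples, the fibroblast list, at 0.76 to 0.98 against 1.06 to 1.25, and the neural list, at 0.33 to 0.48 against 0.22 to 0.29. The endothelial list overlapped, at 0.84 to 1.16 against 1.01 to 1.49. The part of these differences in the results was not tested.

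The genes lie on 9 different chromosomes of GRCh38 in the GENCODE v29 annotation. PAPPA is on chromosome 9 from 116153804 to 116402322 and IGFBP4 on chromosome 17 from 40443461 to 40457731, both on the forward strand. IGFBP3 is on chromosome 7 from 45912245 to 45921874, IGFBP7 on chromosome 4 from 57030773 to 57110385 and STC2 on chromosome 5 from 173314713 to 173329503, all on the reverse strand. IGFBP6 is on chromosome 12 from 53097436 to 53102345, IGF1R on chromosome 15 from 98648539 to 98964530 and IGF2R on chromosome 6 from 159969099 to 160113507, all on the forward strand. PAPPA-AS1, a gene on the opposite strand, shares 2450 exon bases with PAPPA and has no row of its own in the table. No strand-marking step is named for the libraries, so PAPPA counts may hold reads of PAPPA-AS1.

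The promoters of the protease and of the binding protein it cuts are shown because PAPPA had the largest difference of the 8 tested genes and IGFBP4 the highest level. Both are RefSeq sequences of GRCh38.p14, forward strand, running from 250 bases before to 50 bases after the transcription start, with TATAAA, the core of a TATA box, in capitals. They lie at chr9:116153541-116153840 and chr17:40443200-40443499.
PAPPA: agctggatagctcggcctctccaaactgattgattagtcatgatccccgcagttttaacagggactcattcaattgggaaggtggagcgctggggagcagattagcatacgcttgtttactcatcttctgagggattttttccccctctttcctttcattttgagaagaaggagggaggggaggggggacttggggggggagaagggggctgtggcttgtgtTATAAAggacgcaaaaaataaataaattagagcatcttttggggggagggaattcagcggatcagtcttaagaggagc
IGFBP4: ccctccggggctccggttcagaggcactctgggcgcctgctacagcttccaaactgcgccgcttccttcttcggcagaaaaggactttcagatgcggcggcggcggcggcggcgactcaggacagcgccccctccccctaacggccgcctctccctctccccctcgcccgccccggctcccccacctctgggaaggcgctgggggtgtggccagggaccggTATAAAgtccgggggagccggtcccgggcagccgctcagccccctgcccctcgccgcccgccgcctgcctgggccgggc
In PAPPA the capitals begin 28 bases and in IGFBP4 29 bases before the start. The surrounding bases differ in make-up, with 48.7% G and C in the PAPPA promoter, 74.0% in that of IGFBP4 and a median of 58.7% over 35116 promoters. Promoters were at hand for 7 of the 9 genes, without STC1 and IGFBP7. TATAAA on either strand was found in 2 of the 7, PAPPA and IGFBP4, and in 11.5% of all 35116 promoters. The GC box GGGCGG was found in 5 of the 7, with PAPPA and STC2 the exceptions, and in 45.0% of all. CCAAT was found in 2 of the 7, PAPPA and STC2, and in 34.6% of all. TGANTCA, a loose form of the AP-1 site with any base at N, was found in none of the 7 windows and in 7.71% of all. No motif is contained in another, both strands were searched, and a match is one of letters only.

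The levels of the 9 genes spanned more than 3 orders of magnitude per length of transcript. IGFBP4 was at 966 ± 44.1 FPKM (SD, n = 3) in control cells, rank 67 of the 16570 genes. IGFBP7 followed at 130 ± 5.81, then IGFBP6 at 39.4 ± 3.62 and IGFBP3 at 38.4 ± 2.10 FPKM (SD, n = 3), and IGFBP6 and IGFBP3 overlapped in the control samples. IGF2R was at 25.9 ± 0.565, STC1 at 22.0 ± 0.681 and IGF1R at 12.1 ± 0.294 FPKM (SD, n = 3). PAPPA was below the binding proteins, STC1 and both receptors, at 2.16 ± 0.141 FPKM, and STC2 was lowest at 0.397 ± 0.0451 FPKM (SD, n = 3). Neighbours in this order other than IGFBP6 and IGFBP3 did not overlap in the control samples. In knockdown cells the order was the same, and IGFBP6 and IGFBP3 did not overlap there.

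**Figure D1:**
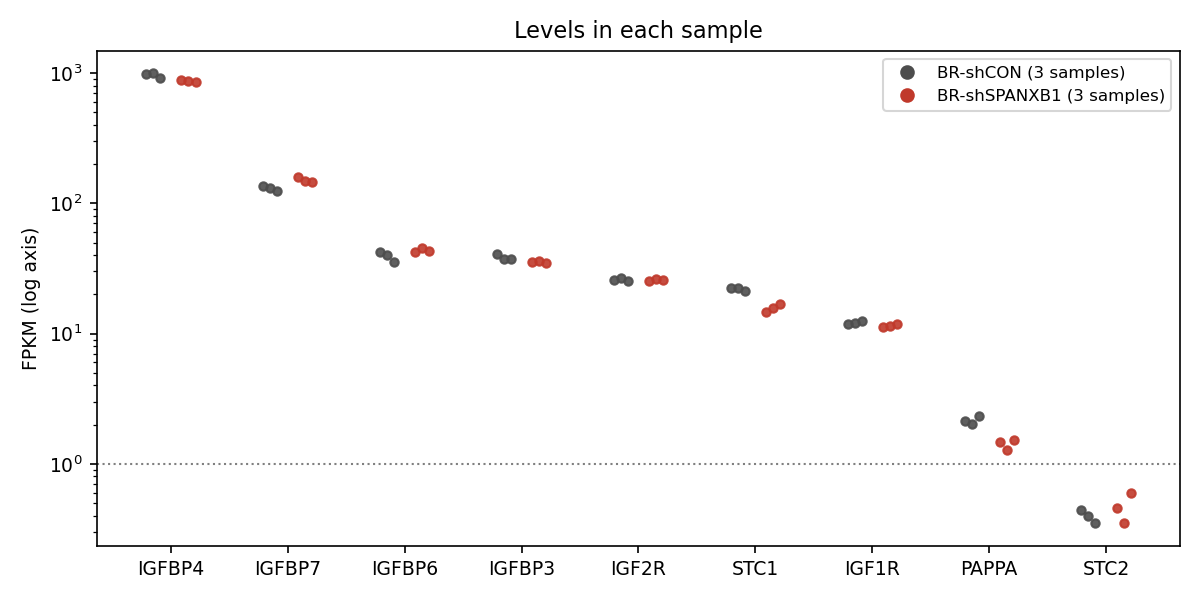
FPKM of the 9 measured genes in each of the 3 BR-shCON (control, grey) and 3 BR-shSPANXB1 (knockdown, red) samples, on a log axis, ordered by the control mean. The dotted line marks 1 FPKM, above which PAPPA lies at 1.27 to 2.31 and below which STC2 lies at 0.35 to 0.60.

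PAPPA, the protease, was at 2.14, 2.03 and 2.31 FPKM in the control samples and at 1.46, 1.27 and 1.51 in the knockdown samples. All 3 knockdown samples lay below all 3 control samples. In bulk RNA, fewer cells that express a gene and less of its RNA per cell cannot be told apart. The estimated counts behind these values were 360, 358 and 383 against 236, 217 and 247. Its log2 fold change, from the edgeR fit over the 11439 genes that averaged 1 FPKM or more, was -0.66 (standard error 0.08, 95% interval -0.82 to -0.50), so that the level fell by 36.7%. This was the 34th lowest log2 fold change of the 11439, and PAPPA was past the criteria of the study, which ask for adjusted p below 0.05, a log2 change beyond 0.59 either way and more than 1 FPKM in control cells. Those criteria were met by 0.621% of the genes tested, by 0.367% in the lower direction, and by 1 of the 8 tested genes described here. PAPPA passed the adjusted p in each of 15 alternatives. Its fold was short of 0.59 with limma on log2(FPKM + 0.1), at -0.58, and on log2(FPKM + 1), at -0.39. With limma after quantile normalization it was past 0.59, at -0.6025.

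STC1, a stanniocalcin that inhibits PAPPA, was at 22.4, 22.4 and 21.2 FPKM in control and 14.6, 15.8 and 16.7 in knockdown samples. All knockdown samples were below all control samples, and the log2 fold change was -0.50 (standard error 0.05, 95% interval -0.60 to -0.39). The level fell by 29.2%, the next largest difference after PAPPA among the 8 tested genes. It stayed short of the fold threshold of the study in every alternative, with values of -0.55 to -0.45 over 16 alternatives.

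STC2, the second stanniocalcin, was at 0.44, 0.40 and 0.35 FPKM in control and 0.46, 0.35 and 0.60 in knockdown samples, from 23 to 39 estimated counts per sample. The groups overlapped and the gene was below the expression filter. With no filter its log2 fold change was 0.23 (standard error 0.24, 95% interval -0.24 to 0.70), so that a difference was not detectable at this depth. The ratio of the mean FPKM values themselves was 0.24 on the log2 scale, and moved to 0.03 without knockdown replicate 3 and to 0.42 without knockdown replicate 2.

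**Figure D2:**
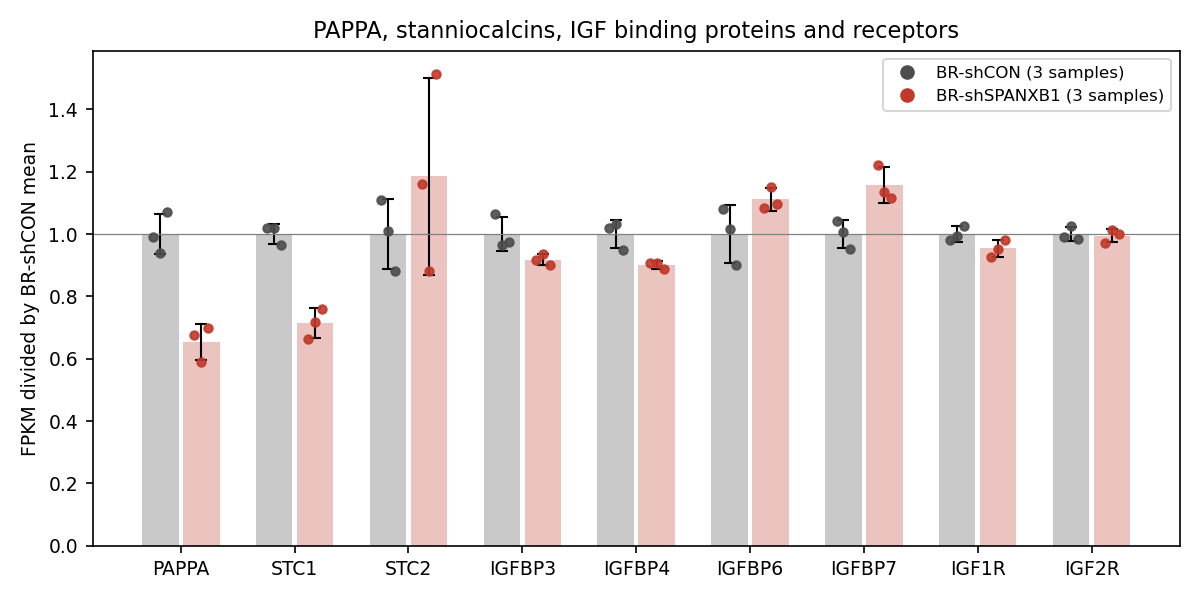
FPKM of each gene divided by its control mean (vertical axis, from 0). Points are samples, bars means and error bars the SD of 3 samples per group, with PAPPA and STC1 at 0.654 and 0.714 of the control mean and IGF2R at 0.995.

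The RNA of PAPPA and of STC1, the stanniocalcin with the higher RNA level, was lower in knockdown cells. The summed FPKM of STC1 and STC2 over that of PAPPA was 10.7, 11.2 and 9.33 in the control samples and 10.3, 12.7 and 11.5 in the knockdown samples, and the groups overlapped. The mean was 10.4 ± 0.973 against 11.5 ± 1.19 (SD, n = 3). PAPPA2, the homologue of PAPPA that cuts IGFBP3 and IGFBP5, was at 2.97 ± 0.0896 FPKM in control and 2.97 ± 0.169 in knockdown cells (SD, n = 3). The ratio of PAPPA to PAPPA2 was 0.733, 0.698 and 0.752 in control and 0.516, 0.433 and 0.478 in knockdown samples, without overlap, so that PAPPA was the lower of the pair in every sample.

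IGFBP4, the binding protein that PAPPA cuts, was at 986, 997 and 916 FPKM in control and 877, 876 and 858 in knockdown samples. The groups did not overlap, and the log2 fold change was -0.17 (standard error 0.04, 95% interval -0.25 to -0.09). The fit put the fall at 10.9%. IGFBP4 passed the adjusted p in 14 of 16 alternatives, and not with limma on log2(FPKM + 0.1) or log2(FPKM + 1), both at -0.15. With limma after quantile normalization it passed, at -0.17.

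IGFBP3, the main carrier of IGFs in blood, was at 40.9, 37.0 and 37.4 FPKM in control and 35.2, 36.0 and 34.6 in knockdown samples. The log2 fold change was -0.14 (standard error 0.05, 95% interval -0.24 to -0.04). The gap between the groups, from 36.0 to 37.0 FPKM, was smaller than the spread of the control samples. IGFBP3 passed the adjusted p in 6 of 16 alternatives only, and without control replicate 1 its log2 fold change was -0.09. Without knockdown replicate 1, 2 or 3 it did not pass either, at -0.14, -0.16 and -0.13.

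IGFBP7, a more distant relative that binds IGFs weakly and is found in vessel walls and matrix, was at 135, 130 and 123 FPKM in control and 159, 147 and 145 in knockdown samples. All 3 knockdown samples were higher, and the log2 fold change was 0.17 (standard error 0.04, 95% interval 0.08 to 0.26). It did not pass the adjusted p without control replicate 2 (0.15) or without knockdown replicate 1 (0.13). IGFBP7 shares 270 exon bases with POLR2B, a subunit gene of RNA polymerase II on the opposite strand, and 94 with IGFBP7-AS1, also on the opposite strand and without a row of its own. IGFBP7 was the only gene of the 9 whose counts were not whole. The estimated counts of IGFBP7 and POLR2B added up to a whole number in 6 of 6 samples, to within 0.01. These sums were 6377, 6381 and 6458 in control and 6427, 6314 and 6520 in knockdown samples, and overlapped. POLR2B itself went the other way, with a log2 fold change of -0.11 (adjusted p = 0.0837, edgeR quasi-likelihood, Benjamini-Hochberg). The sources used here do not say how reads were divided between the 2 genes, and the part of that division in the IGFBP7 value was not tested.

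IGFBP6, which prefers IGF2 over IGF1, was at 42.6, 40.1 and 35.5 FPKM in control and 42.6, 45.4 and 43.2 in knockdown samples. The highest control and the lowest knockdown sample were at 42.58 and 42.63 FPKM, and as counts scaled by library total the groups overlapped. Its log2 fold change of 0.12 (standard error 0.07, 95% interval -0.02 to 0.27) did not pass, and was 0.05 without control replicate 3 and 0.20 without control replicate 1.

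The 4 binding proteins together came to 1174 ± 53.3 FPKM in control and 1100 ± 17.5 in knockdown cells (SD, n = 3), and these sums overlapped. IGFBP4 made up 81.9%, 82.8% and 82.3% of the sum in control and 78.8%, 79.3% and 79.4% in knockdown samples. IGFBP7 held 11.2%, 10.8% and 11.1% against 14.2%, 13.3% and 13.4%. IGFBP6 held 3.19% to 3.54% in control and 3.83% to 4.11% in knockdown samples, and the share of IGFBP3 overlapped. The share of IGFBP4 was lower and those of IGFBP7 and IGFBP6 higher in all knockdown samples. The division of reads between IGFBP7 and POLR2B enters every share through the sum.

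**Figure D3:**
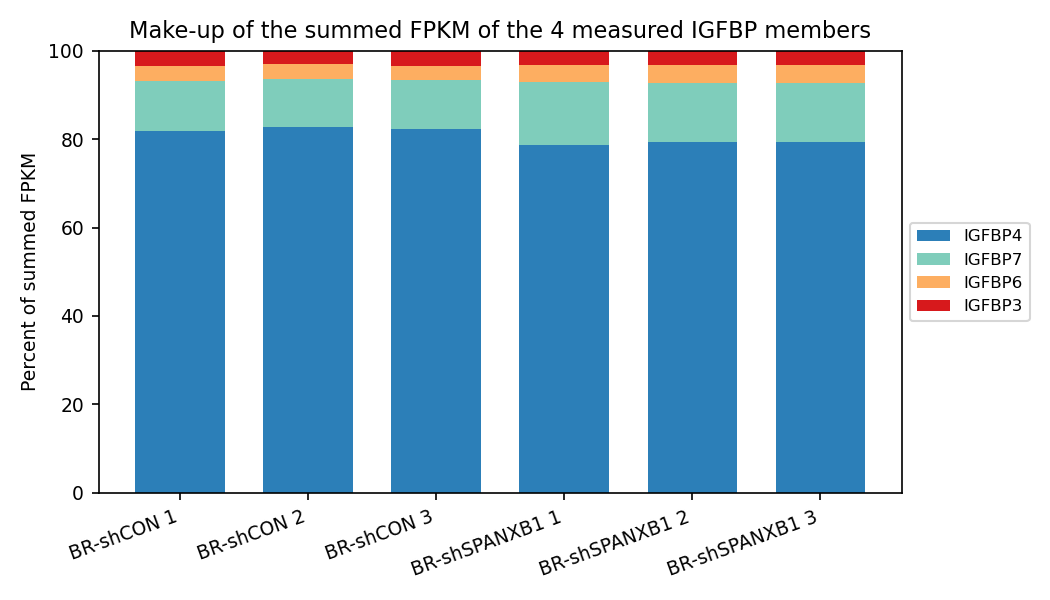
Percent of the summed FPKM of IGFBP3, IGFBP4, IGFBP6 and IGFBP7 held by each, for each of the 6 samples. IGFBP4 holds 81.9% to 82.8% in control and 78.8% to 79.4% in knockdown samples.

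IGF1R, the signalling receptor, was at 11.87, 12.03 and 12.44 FPKM in control and 11.24, 11.53 and 11.89 in knockdown samples, with overlap. As counts scaled by library total the groups did not overlap, and all knockdown samples were below all control samples. The log2 fold change was -0.05 (standard error 0.04), and its 95% interval ran from -0.14 to 0.03. IGF2R, the clearance receptor, was at 25.6, 26.5 and 25.5 against 25.2, 26.2 and 25.9 FPKM and overlapped on both scales. Its log2 fold change was -0.02 (standard error 0.04, 95% interval -0.10 to 0.06), and it was 0.0014 without knockdown replicate 1.

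In all, 5 of the 8 tested genes passed an adjusted p of 0.05, 4 lower and 1 higher in knockdown cells, where 13.8% of the 11439 genes passed, 6.98% lower and 6.82% higher. The count was 3 without knockdown replicate 1, when IGFBP3 and IGFBP7 did not pass. The FPKM of the groups did not overlap in 6 of the 8, and in 28.6% of all genes tested. The median log2 fold change was -0.10 over the 8 and 0.0002 over all genes. The genes were chosen with this comparison in view, so nothing is read from these counts.

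Other genes of the pathway came from a list of 63, written from general knowledge by role, with earlier results of these data known. Of these, 57 had a row and 41 were tested, of which 4 rose and 7 fell (edgeR, adjusted p under 0.05), and 30 did not pass. The share of 26.8% stands beside 13.8% over all genes, and the median log2 fold change was -0.02. With the replicate number as a block, 18 passed, 8 higher and 10 lower, where 25.7% of all genes passed. With limma on log2(FPKM + 0.1) there were 6, of which 2 lower, beside 7.57% of all genes. With DESeq2 there were 9, of which 5 lower, beside 8.92%. Since the list was not written blind to these data, nothing is read from these shares.

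The ligands were low. IGF1 was at 0.020 FPKM in control and 0.027 in knockdown cells on average, and IGF2 at 0.95, 1.09 and 1.10 against 1.02, 0.63 and 0.81 FPKM. Both were below the expression filter. Of the other carriers IGFBP1, at 27.2 ± 3.60 FPKM in control cells (SD, n = 3), and IGFBPL1 did not pass (log2 fold change 0.02 and 0.06), and IGFBP5 and IGFALS, the acid-labile subunit of the blood complex, were at or under 0.21 FPKM. PRG2, whose product proMBP also blocks PAPPA, stayed at or under 0.68 FPKM. Among other proteases that cut binding proteins, HTRA1 had a log2 fold change of 0.33 (standard error 0.11, edgeR adjusted p = 0.0516). The lysosomal protease CTSD had 0.13 (edgeR adjusted p = 0.0808). Neither passed, and PAPPA2 was at -0.02 with a 95% interval from -0.15 to 0.12. With the replicate block, HTRA1 (edgeR adjusted p = 0.0128) and CTSD (edgeR adjusted p = 0.000161) did pass, as both did with no filter. HTRA1 also passed without control replicate 2 (0.41) or knockdown replicate 2 (0.40), and was 0.22 without knockdown replicate 1. CTSD passed without control replicate 1 (0.19), and was 0.07 without control replicate 3.

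Among other receptors, TMEM219, a receptor for IGFBP3, rose from 33.6 ± 2.28 to 41.2 ± 3.67 FPKM (SD, n = 3), or 0.33 on the log2 scale (edgeR adjusted p = 0.00136). LRP1, an uptake receptor that binds IGFBP3, rose from 4.48 ± 0.166 to 5.49 ± 0.221 FPKM (SD, n = 3), at 0.28 (edgeR adjusted p = 0.000136). In both genes all 3 knockdown samples were above all 3 control samples. The insulin receptor INSR (0.03) and the mannose phosphate receptor M6PR (0.06) did not pass.

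Of 23 tested adaptors and regulators of the receptors, 2 rose and 3 fell, or 21.7% in all, beside 13.8% over all genes, and nothing particular to them is read from this. GRB10, an adaptor that restrains signalling by IGF1R and the insulin receptor, rose from 23.6, 24.0 and 22.4 FPKM in control to 36.2, 35.7 and 34.1 in knockdown samples. Its log2 fold change of 0.58 (standard error 0.04, edgeR adjusted p = 4.58e-11) was the largest rise among the 41 tested genes, just under the fold threshold of the study. It was past that threshold with limma on log2(FPKM + 0.1), at 0.5952, without control replicate 2, at 0.5947, and without knockdown replicate 3, at 0.6007. SOCS2, which restrains growth hormone signalling, rose from 13.5 ± 0.611 to 17.8 ± 0.520 FPKM (SD, n = 3), at 0.35 (edgeR adjusted p = 0.000134). Falls were seen in the docking protein IRS1, at -0.15 (edgeR adjusted p = 0.0183), the docking protein GAB1, at -0.28 (edgeR adjusted p = 0.0218), and SOCS3, a brake on cytokine receptors, at -0.17 (edgeR adjusted p = 0.0323). These falls were less firm. IRS1 did not pass without control replicate 2 (-0.14) or knockdown replicate 1 (-0.12). GAB1 did not pass without control replicate 1 (-0.23) or knockdown replicate 2 or 3 (both -0.27). SOCS3 passed without control replicate 3, and did not pass without any 1 of the other 5 samples, at -0.18 to -0.13. RACK1, CAV1 and PTPN11, the most abundant that did not pass, had log2 fold changes of -0.02, 0.11 and -0.02, and CAV1 passed with the replicate block (edgeR adjusted p = 0.000555). With limma on log2(FPKM + 0.1) IRS1, GAB1 and SOCS3 did not pass, and with DESeq2 GAB1 and SOCS3 did not.

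IGF2BP2, which binds IGF2 mRNA, fell from 57.6 ± 2.33 to 52.7 ± 1.74 FPKM (SD, n = 3), at -0.15 (edgeR adjusted p = 0.0136), and did not pass without control replicate 1 or knockdown replicate 2 (both -0.13), nor with limma. IGF2BP3 (-0.07) and HSP90B1 (-0.08), a chaperone that IGFs need for folding, did not pass, though HSP90B1 did with the block. Among proteins with an IGFBP-like domain, ESM1 or endocan fell from 65.3 ± 1.02 to 49.1 ± 2.28 FPKM (SD, n = 3), at -0.43 (edgeR adjusted p = 4.60e-08). CCN3 fell from 52.4 ± 1.75 to 42.6 ± 0.769 FPKM (SD, n = 3), at -0.32 (edgeR adjusted p = 5.92e-06), and CCN2 at -0.18 (edgeR adjusted p = 0.00411), the latter not with limma. CCN1, the most abundant of the group at 637 ± 16.3 FPKM in control cells (SD, n = 3), had a log2 fold change of 0.01, CRIM1 -0.03 and KAZALD1 0.06, and none of the 3 passed.

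**Figure D4:**
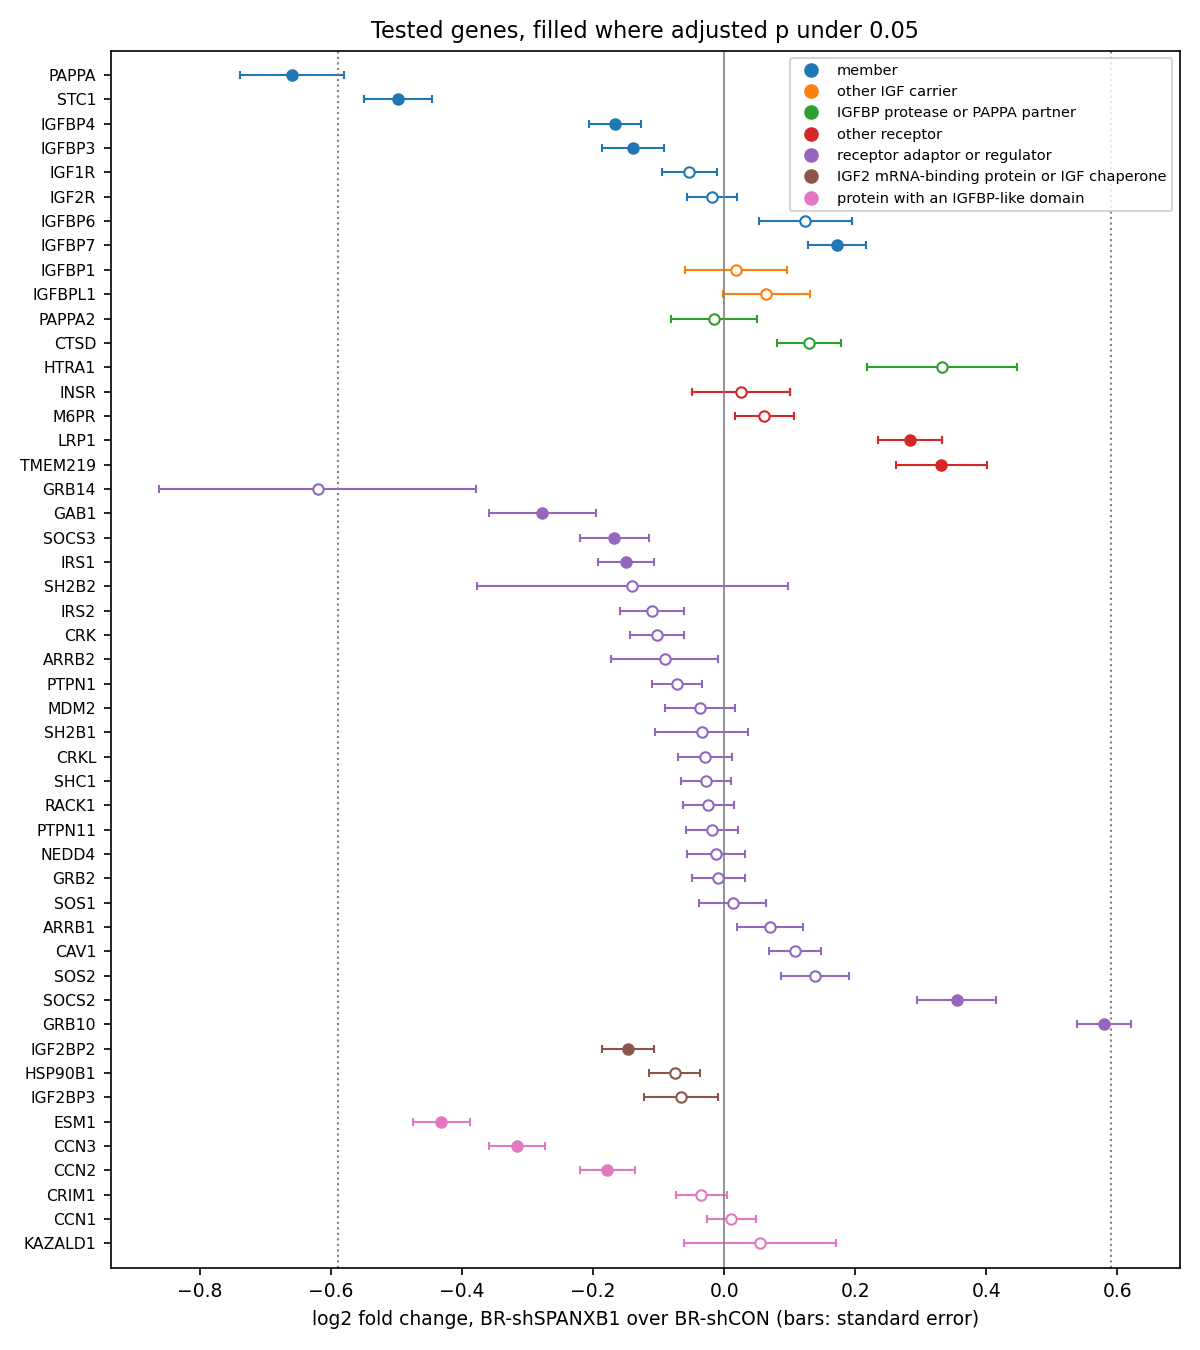
Log2 fold change, knockdown over control, for the 8 tested genes of the IGF binding axis (member) and the 41 tested genes of the wider list, by role. Points are estimates, bars the standard error and filled points genes past an adjusted p of 0.05 in edgeR, with dotted lines at 0.59 in either direction. PAPPA and GRB14, an adaptor that did not pass, lie beyond the lower line and GRB10, at 0.58, just inside the upper one.

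The genes most like PAPPA over the 6 samples, by Pearson correlation of log2(FPKM + 0.1), were PCLAF, MSMO1, RAB27B, GLO1 and CHIC1, at 0.995 to 0.997. The most opposite were MYO18A, MYL12A, STING1, BTN2A2 and CAVIN2, at -0.999 to -0.996. Of the 11438 other genes tested, 483 had a correlation over 0.9 and 614 one under -0.9. The 6 points are the same 2 groups of 3 samples, so the group difference weighs heavily in these correlations. STC1 stood at 0.917, rank 383, IGF1R at 0.795, IGFBP4 at 0.752 and IGFBP3 at 0.706. IGF2R was at -0.054, IGFBP6 at -0.795 and IGFBP7 at -0.874. Separation alone does not set the order, since the FPKM of IGF1R overlapped and that of IGFBP4 and IGFBP3 did not.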

How the data were processed

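The authors deposited 1 table with estimated counts, FPKM values and TPM values for 16570 genes in 3 BR-shCON and 3 BR-shSPANXB1 samples. The deposited FPKM values are scaled by the authors per transcript length and mapped fragments, the deposited TPM values (not used here) to a fixed sum per sample, and the deposited estimated counts are not normalized. The aligners, Bowtie2 2.2.5 and HISAT2 2.0.4, and the build GRCh38.p12 appear in the submitters' notes without a role. The sources used here give neither counter nor annotation. Polyadenylated RNA was read from both ends.

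Estimated counts, of which 14.5% were not whole, were rounded and tested with edgeR 4.0.16 (TMM, robust quasi-likelihood, Benjamini-Hochberg) in R 4.3.3 over the 11439 genes that averaged 1 FPKM or more. Unless stated otherwise, log2 fold changes, percent falls, standard errors and 95% intervals come from that fit. They need not equal ratios of the mean FPKM. The fit shares variance across genes (median prior degrees of freedom 23.8). Limma 3.58.1 and DESeq2 1.42.0 were alternatives. Scripts were tested on simulated data. Figures were drawn with matplotlib 3.10.9.

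Samples of 1 group differed by 1.98 to 3.03 chi-square units per degree of freedom, above sampling noise. The series description calls them independent, without saying what was separate, so p-values measure the spread between these samples. In its general statistics section the paper reports 3 biological replicates from separate cell batches, without naming the sequencing. Whether samples of the same number share a batch is not stated. Same-numbered samples deviated together across genes, at correlations of 0.113, 0.150 and 0.159 on the scale of the fit and of 0.0964, 0.135 and 0.104 in log2(FPKM + 0.1). Pairs of other numbers were at -0.105 to -0.0306 on the scale of the fit and at -0.0811 to -0.0361 in log2(FPKM + 0.1). Deviations were taken from the mean of each group, so that they sum to 0 within it. Positive values for same numbers therefore push those of other numbers below 0, and the latter are no separate observation. The fit without the replicate block is reported, and the block is an alternative.

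The genes described and the lists were chosen with earlier results of these data known. Named beyond the 9 genes were the targeted gene, list genes that passed, up to 3 abundant list genes per role that did not, low ligands and carriers, and the 5 genes most like and most unlike PAPPA. PRG2, POLR2B, GRB14 and the cell markers were named besides, GRB14 after its values were seen.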

Additional observations from a re-analysis of the deposited data

How the results depend on the processing

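STC2 had 23 to 39 counts per sample, and STC2 and the ligands were left out by the expression filter. PAPPA and STC1 were lower and past the adjusted p in every alternative in which they were tested, and IGF1R, IGF2R and IGFBP6 in none. In edgeR with the replicate block, 2935 genes passed in place of 1579 (780 higher, 799 lower), 18 in place of 11 of the pathway list, and 5 of the 8 tested genes of the IGF binding axis, as without it. All genes past the test were 866 with limma on log2(FPKM + 0.1) (516 higher, 350 lower), 873 on log2(FPKM + 1) (522 higher, 351 lower), 894 after quantile normalization and 1020 with DESeq2. The pathway list had 6, 6, 7 and 9. Tested genes of the axis past the test were 3 with limma at either pseudocount and 3 at a mean FPKM of at least 5, where PAPPA is left out by the filter. None (0) met the criteria of the study in these 3 settings, in place of 1. All genes past those criteria, 71 in the reported fit (29 higher, 42 lower), were 58 with limma on log2(FPKM + 0.1) (34 higher, 24 lower), 30 with limma on log2(FPKM + 1) and 26 at a mean FPKM of at least 5. The cause was not tested, except that the filter at 5 tests 9026 genes.

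Leaving out 1 sample gave 1041 (without BR-shSPANXB1 replicate 2) to 1466 genes past the test, 64 to 78 past the criteria, 3 to 5 tested genes of the axis past the test, 1 in each case past the criteria, and 9 to 12 of the list. The stanniocalcin to PAPPA ratio of BR-shSPANXB1 over BR-shCON cells, 1.11 with all samples, ran from 1.05 to 1.16. The summed level of the 4 binding proteins, 0.937 of BR-shCON, ran from 0.913 to 0.950, and was 0.914 from counts in place of FPKM. Signs turned, without a sample, in fold changes near 0, with ranges of -0.0326 to 0.0014 for IGF2R, -0.0428 to 0.1375 for IGFBP1, -0.0616 to 0.0187 for PAPPA2, -0.0317 to 0.0848 for INSR, -0.0385 to 0.0097 for PTPN11, -0.0639 to 0.1884 for KAZALD1 and -0.0096 to 0.0269 for CCN1. PAPPA2 also turned with limma, at 0.0021 on log2(FPKM + 0.1) and 0.0018 on log2(FPKM + 1).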
